A study of Mus musculus with 8 samples.

Results

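*Foxs1* and 6 marker genes of pericytes, *Rgs5*, *Cspg4*, *Mcam*, *Abcc9*, *Vtn* and *Higd1b*, were followed through RNA sequencing of the left ventricle (LV). The 7 genes were taken by name from the deposited table of counts, which lists 46040 genes, and all 7 were among the 13542 genes that passed the filter on low counts (CPM, the count scaled to the size of the library, had to reach 1 in 2 or more libraries). *Foxs1* was chosen because its difference between the genotypes was already known from these libraries, and the markers were chosen with the results of the same comparison at hand. The difference between the genotypes is therefore only described for these 7 genes. What the tests over all genes gave for them is part of that description.

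The mice were males of 5 to 7 months on a C57BL/6 background, littermates that carried or lacked a germline deletion of the tyrosine kinase domain from *Flt1*, which encodes VEGFR-1. Both groups, the controls included, received angiotensin II (angII) by osmotic minipump at 0.1 mg/kg/h to produce pressure overload and LV hypertrophy, and the LVs were taken on day 14 from animals that had survived. There is no untreated group among the libraries, and each genotype has 4 libraries. The genotype field and the library names assign each library to one genotype while the sample titles assign it to the other. Libraries are grouped here by library name as control-tagged and TK-tagged (VEGFR-1 TK-/-), and the sign of every difference turns around if the titles are correct. The library names also speak of cardiomyocytes, whereas the source is LV tissue. Counts on genes amounted to 11449137 to 16239670 per library. Over the whole gene, *Flt1* had a normalized CPM of 56.8 to 84.2 in the control-tagged and 143 to 169 in the TK-tagged libraries, but a count over all exons does not show the removed domain.

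Pericytes are the mural cells of capillaries. They sit on the endothelial tube inside the shared basement membrane, are held there by PDGF-B from endothelial cells acting on PDGFR-beta, and in the heart they cover the dense capillary bed between the cardiomyocytes. Smooth muscle cells are the mural cells of arteries and larger veins and share many genes with pericytes, but carry a contractile programme in addition. *Foxs1* encodes a forkhead transcription factor found in perivascular cells and in the peripheral nervous system. The other members stand for different sides of a pericyte: *Rgs5* shortens G protein signaling of vasoactive receptors, *Cspg4* encodes the surface proteoglycan NG2, *Mcam* the adhesion molecule CD146, *Abcc9* the sulfonylurea receptor of ATP-sensitive potassium channels, *Vtn* the matrix protein vitronectin and *Higd1b* a small mitochondrial protein. LV tissue is a mixture of cells, and in such bulk samples fewer cells of a type cannot be told apart from less RNA in each of them.

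A RefSeq promoter was found for 5 of the 7 members in the sequence table (build GRCm38.p6), and *Foxs1* and *Higd1b* had none in it. The sequences below set 2 markers with lower means in the TK-tagged group, *Rgs5* and *Cspg4*, beside *Abcc9*, whose groups were close. Each is printed 5′ to 3′ on the strand of the gene and covers the part of the 250 bases before the transcription start that lies ahead of any annotated exon of that gene. Capitals mark a GC box (GGGCGG, read on either strand) or the core of the RBPJ site through which Notch receptors act (TGGGAA).
Rgs5 promoter, chr1:169655251-169655500, plus strand: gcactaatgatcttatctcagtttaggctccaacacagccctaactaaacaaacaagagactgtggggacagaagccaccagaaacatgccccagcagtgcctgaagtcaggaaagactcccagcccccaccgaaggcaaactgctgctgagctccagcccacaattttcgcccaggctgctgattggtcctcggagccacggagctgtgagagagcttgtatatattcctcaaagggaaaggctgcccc
Cspg4 promoter, chr9:56864854-56865032, plus strand: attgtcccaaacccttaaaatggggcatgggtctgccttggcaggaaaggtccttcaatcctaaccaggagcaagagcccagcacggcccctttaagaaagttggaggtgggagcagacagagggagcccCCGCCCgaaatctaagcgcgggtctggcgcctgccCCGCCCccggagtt
Abcc9 promoter, chr6:142702316-142702524, minus strand: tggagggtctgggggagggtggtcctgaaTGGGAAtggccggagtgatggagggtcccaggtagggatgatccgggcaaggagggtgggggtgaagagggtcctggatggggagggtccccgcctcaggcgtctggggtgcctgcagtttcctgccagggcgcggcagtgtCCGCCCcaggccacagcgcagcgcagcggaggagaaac

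In the full windows of 250 bases, the GC box occurred 2 times in *Cspg4*, 1 time in *Abcc9*, 5 times in *Mcam* and 0 times in *Rgs5* and *Vtn*, and 32.7% of all 32851 promoter windows of this length held it. The RBPJ core occurred 1 time each in *Abcc9* and *Vtn*, against 21.6% of all windows. None of the 5 windows held the forkhead core TGTTTAC (3.17% of all windows) or a CArG box, the site of serum response factor (1.47%). *Vtn* held the letters TATAAA on both strands at one overlapping place (12.4% of all windows). The GC content was 53.6% for *Rgs5*, 60.4% for *Cspg4*, 66.8% for *Abcc9*, 50.4% for *Vtn* and 73.6% for *Mcam*, with a median of 52.4% over all windows. These short matches describe the sequences and do not show binding.

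All 7 genes had a lower mean in the TK-tagged libraries, with log2 fold changes between −0.74 (*Foxs1*) and −0.10 (*Abcc9*) and a median of −0.48. Over all genes tested the median was −0.00119, and 50.3% of the genes were below 0. The groups did not overlap in 3 of the 7 genes, *Foxs1*, *Cspg4* and *Mcam*, against 4.98% of all genes with separate groups and 2.53% with separate groups in this direction. By edgeR's quasi-likelihood test none of the 7 was called, which required a false discovery rate (FDR) under 0.1 and a change of 1.5-fold or more, against 0.00738% of all genes. The likelihood ratio test (0.391% of all genes called, 0.303% as lower), DESeq2 (0.236%, 0.192% as lower) and the fit without a filter on low counts (0.102%, 0.0841% as lower) also called 0 of the 7. The unadjusted p of the quasi-likelihood test was under 0.05 in 4 of the 7, each lower in the TK-tagged libraries. Of all genes 8.96% had such a p, and 5.64% in this direction. Since the choice of the genes used this comparison, these counts are a description only.

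*Foxs1* (ENSMUSG00000074676) has a single exon (GRCm38, chromosome 2, 152931898 to 152933208, minus strand). The control-tagged replicates 1 to 4 had 5.98, 9.28, 4.84 and 7.91 normalized CPM. The TK-tagged replicates 1 to 4 had 4.71, 3.46, 4.18 and 4.30. Every control-tagged library was thus above every TK-tagged library, but the lowest control-tagged library, replicate 3, was close to the highest TK-tagged library. The means were 7.0 ± 1.98 and 4.16 ± 0.520 (SD, n = 4 per group), which gave −0.74 as log2 fold change (SE 0.22), and 1.18% of all genes tested had a log2 fold change at or below this value.

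The depth behind *Foxs1* was low, with 72 to 128 reads per control-tagged and 39 to 58 per TK-tagged library. Counting error alone gives a coefficient of variation of 10.3% at the mean count of the control-tagged and 14% at that of the TK-tagged libraries, and the observed values were 28.3% and 12.5%. The spread of the control-tagged libraries was therefore wider than counting error, and that of the TK-tagged libraries was within it. With control-tagged replicate 2 left out, which had the highest value, the log2 fold change was −0.58, and without control-tagged replicate 3 it was −0.89.

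*Rgs5* (ENSMUSG00000026678; chromosome 1, 169655501 to 169695813) was the most abundant member. Its normalized CPM was 639, 1057, 717 and 828 in the control-tagged replicates 1 to 4 and 564, 457, 649 and 650.2 in the TK-tagged replicates 1 to 4. The groups overlapped in control-tagged replicate 1, which lay under TK-tagged replicates 3 and 4. The means were 810.1 ± 182 and 580.0 ± 91.3 (SD, n = 4 per group), with a log2 fold change of −0.48 (SE 0.17). As for *Foxs1*, control-tagged replicate 2 was the highest and TK-tagged replicate 2 the lowest library, and without the former the log2 fold change was −0.33. Counting error was 0.952% and 1.18% here, far under the observed coefficients of variation of 22.4% and 15.7%.

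Both surface molecules had separate groups. *Cspg4* (ENSMUSG00000032911; chromosome 9, 56865033 to 56899870) was at 45.2, 48.0, 48.1 and 45.9 normalized CPM in the control-tagged replicates 1 to 4 and at 33.7, 25.9, 31.7 and 41.1 in the TK-tagged replicates 1 to 4. The control-tagged libraries were close together, with a coefficient of variation of 3.16% where counting error gives 3.96%, and the spread lay in the TK-tagged libraries (18.9%). Its means of 46.8 ± 1.48 and 33.1 ± 6.27 (SD, n = 4 per group) gave a log2 fold change of −0.50 (SE 0.12).

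*Mcam* (ENSMUSG00000032135; chromosome 9, 44134469 to 44142727) had a normalized CPM of 120.1, 171, 145 and 138 in the control-tagged and 107, 91.7, 98.9 and 114 in the TK-tagged replicates 1 to 4. The means were 144 ± 21.3 and 103 ± 9.50 (SD, n = 4 per group), and the log2 fold change was −0.48 (SE 0.12). *Mcam* is also made by endothelial and smooth muscle cells. It shares 17 exon bases with an antisense gene, and as the counting of strand is not stated, reads there cannot be assigned to one or the other.

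*Abcc9* (ENSMUSG00000030249; chromosome 6, 142587862 to 142702315) stood apart from the other markers. Its normalized CPM was 207, 198, 251 and 223 in the control-tagged replicates 1 to 4 and 174, 191, 234 and 224 in the TK-tagged replicates 1 to 4. Control-tagged replicate 3 was the single one above all TK-tagged libraries, and the means of 219.7 ± 23.2 and 206 ± 28.3 (SD, n = 4 per group) differed by less than the spread between replicates (log2 fold change −0.10, SE 0.12). *Abcc9* is not restricted to mural cells, since its product also forms the ATP-sensitive potassium channel of cardiomyocytes with the pore subunit of *Kcnj11*, while in mural cells it pairs with that of *Kcnj8*. It shares 158 exon bases with an antisense gene, with the same limit as for *Mcam*. Its log2 fold change was −0.03 without control-tagged replicate 3, −0.02 without TK-tagged replicate 1 and −0.17 without TK-tagged replicate 3.

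The pore subunits differed in their values. Per kilobase of exon, the normalized CPM of *Kcnj8* was 28.6 ± 6.79 in the control-tagged and 18.3 ± 2.60 in the TK-tagged libraries, without overlap, whereas that of *Kcnj11* was 23.4 ± 5.17 and 24.5 ± 2.02 (SD, n = 4 per group). The log2 fold change was −0.65 (SE 0.16, FDR = 0.442 by the quasi-likelihood test) for *Kcnj8* and 0.07 (SE 0.14, FDR = 0.921) for *Kcnj11*. That of *Kcnj8* was −0.48 (SE 0.12) without control-tagged replicate 3, its highest library, and −0.74 (SE 0.16) without control-tagged replicate 1. *Kcnj11* was named for its role as partner after its values were seen. The difference between the changes of *Kcnj8* and *Kcnj11* was not tested.

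*Vtn* (ENSMUSG00000017344; chromosome 11, 78499091 to 78502324) had a normalized CPM of 34.5, 43.3, 39.4 and 40.9 in the control-tagged and 38.1, 25.7, 28.9 and 38.4 in the TK-tagged replicates 1 to 4. The TK-tagged libraries fell into a low pair, replicates 2 and 3, and a pair above the lowest control-tagged library. The means were 39.5 ± 3.69 and 32.8 ± 6.46 (SD, n = 4 per group), with a log2 fold change of −0.27 (SE 0.14), or −0.17 without TK-tagged replicate 2. *Higd1b* (ENSMUSG00000020928; chromosome 11, 102835849 to 102838040) showed the same pair of low libraries, at 15.1, 11.8, 11.6 and 14.6 normalized CPM in the TK-tagged replicates 1 to 4 against 14.4, 18.6, 14.2 and 18.3 in the control-tagged replicates. Its means of 16.4 ± 2.39 and 13.3 ± 1.84 (SD, n = 4 per group) gave a log2 fold change of −0.30 (SE 0.14), with overlapping groups.

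**Figure D1:**
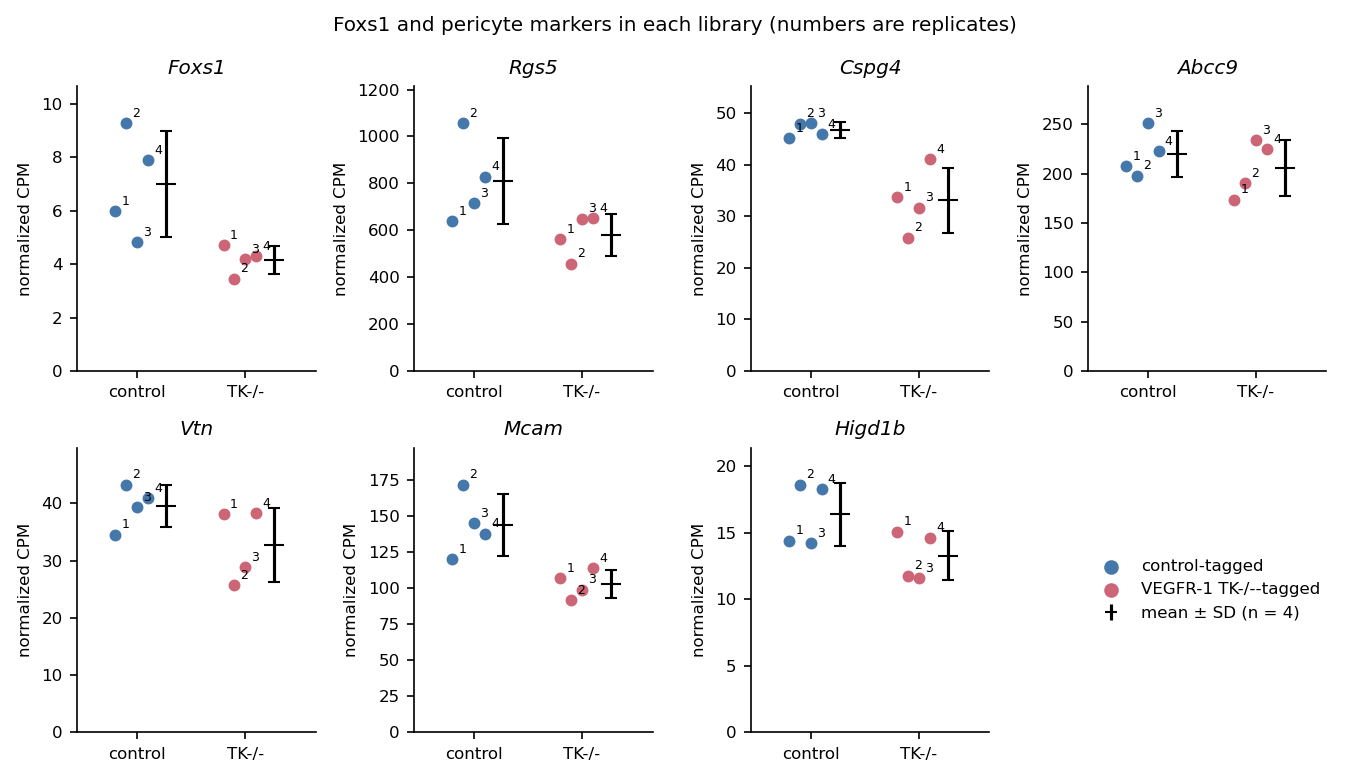
Normalized CPM (vertical axes, from 0) of the 7 genes in each of the 8 libraries, by genotype tag, with replicate numbers beside the points and bars for the mean ± SD (n = 4 per group). The groups are separate for *Foxs1*, *Cspg4* and *Mcam*, and *Abcc9* has nearly the same mean in both.

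Over the members, control-tagged replicate 2 had the highest value in 5 of the 7 genes and TK-tagged replicate 2 the lowest in 5 of the 7. The mean rank over the members, from 1 for the highest of 8 libraries, was 1.86 in the former and 7.71 in the latter. The mean ranks of the other libraries ran from 2.57 in control-tagged replicate 4 to 6.14 in TK-tagged replicate 3. Control-tagged replicate 1 had a mean rank of 4.71, below TK-tagged replicate 4 with 4.43. The summed normalized CPM of the 7 genes, most of it from *Rgs5*, was 1066 to 1545 in the control-tagged and 806 to 1087 in the TK-tagged libraries, so that the groups overlapped.

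Levels were compared between the genes per kilobase of exon. The order was *Rgs5* with 153 ± 39.9 normalized CPM per kilobase, *Mcam* with 36.8 ± 7.96, *Abcc9* with 25.4 ± 3.0, *Vtn* with 17.8 ± 2.98, *Higd1b* with 17.5 ± 3.05, *Foxs1* with 4.26 ± 1.54 and *Cspg4* with 3.35 ± 0.708 (SD, n = 8 libraries). *Rgs5* was above *Mcam* in every library, with ranges that did not touch, and the same was true of *Higd1b* above *Foxs1*. *Vtn* and *Higd1b* did not differ beyond their spread, *Vtn* being higher in 4 of 8 libraries. The ranges of *Foxs1* and *Cspg4* also overlapped, and *Foxs1* was higher in 6 of 8. *Mcam* exceeded *Abcc9*, and *Abcc9* exceeded *Vtn*, in all 8 libraries although their ranges touched. Per length, the RNA of *Foxs1* was thus near that of *Cspg4*. The exon length is the union of all annotated exons of a gene, 1311 bases for *Foxs1* and 11931 for *Cspg4*. A union longer than the transcript present lowers the value, so the order of these genes can depend on it.

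**Figure D2:**
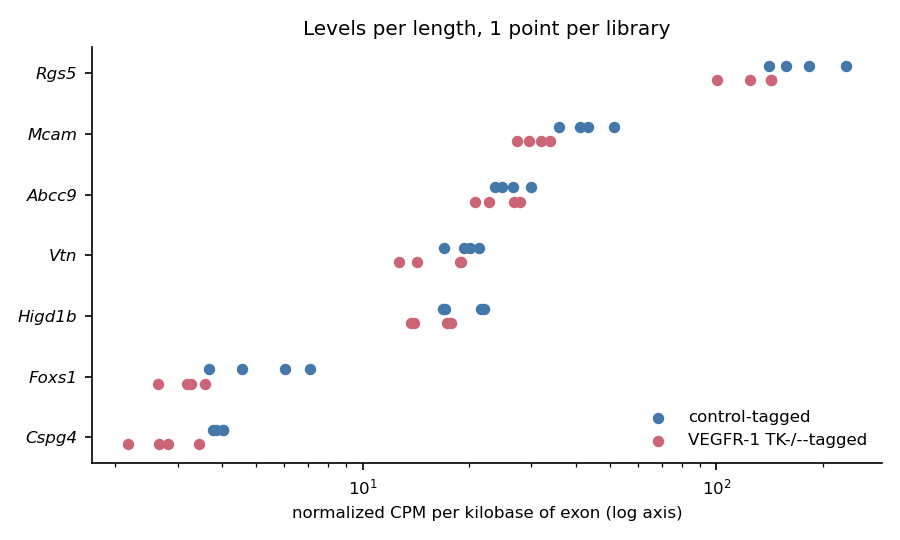
Normalized CPM per kilobase of exon (horizontal log axis) of the 7 genes, 1 point per library, coloured by genotype tag and ordered by the mean. *Rgs5* lies above 100.6 in every library, and *Foxs1* and *Cspg4* lie between 2.17 and 7.08.

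To see whether the 7 genes go together between libraries of one genotype, each gene was centred on the mean of its group and the pairs were compared over the 8 libraries, which does not use the difference between the genotypes. Pearson's r was above 0 in 17 of the 21 pairs, with a median of 0.58. All 15 pairs without *Abcc9* were positive, the lowest being *Foxs1* and *Cspg4* at 0.29 (this pair was at −0.01 once TK-tagged replicate 2 was left out), and 4 of the 6 pairs with *Abcc9* were negative. By an exact 2-sided permutation test within groups, the p was under 0.05 in 6 pairs, and none was under 0.05 after Benjamini-Hochberg adjustment over the 21 pairs. The smallest adjusted p was 0.0820, shared by 4 pairs.

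*Foxs1* went closest with *Higd1b* (r = 0.83, exact permutation p = 0.0156, adjusted p = 0.0820; Spearman's rho = 0.88, exact p = 0.0312) and next with *Rgs5* (r = 0.78, exact p = 0.0538, adjusted p = 0.146; rho = 0.74, exact p = 0.0608). Without the 2 libraries farthest from the median of *Foxs1*, r was 0.83 and 0.74. Its r was 0.58 with *Mcam* (exact p = 0.236, adjusted p = 0.349; rho = 0.52, exact p = 0.286), 0.56 with *Vtn* (exact p = 0.0556, adjusted p = 0.146; rho = 0.64, exact p = 0.0469) and −0.44 with *Abcc9* (exact p = 0.266, adjusted p = 0.349; rho = −0.50, exact p = 0.241). Without the same 2 libraries, r became 0.69 with *Mcam*, 0.81 with *Vtn* and 0.08 with *Abcc9*, so that the negative value of the last pair rested on them. Single libraries also moved some pairs: r of *Foxs1* and *Mcam* was 0.21 without control-tagged replicate 2 (exact p = 0.688) and 0.91 without control-tagged replicate 3 (exact p = 0.0417, adjusted p = 0.109), and r of *Foxs1* and *Cspg4* was 0.52 without the latter. With *Higd1b*, r of *Foxs1* stayed between 0.80 and 0.93 when 1 library was left out. Values of r this high were common, since 5% of all genes tested had an r with *Foxs1* above 0.81, and the median over all genes was 0.08. The libraries share 1 scaling each. When counts were scaled to library totals without TMM factors, which lay between 0.917 and 1.12 and were highest in control-tagged replicate 2, the adjusted p was under 0.05 in 10 pairs, and r of *Foxs1* and *Higd1b* was 0.91 (exact p = 0.0104, adjusted p = 0.0312).

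**Figure D3:**
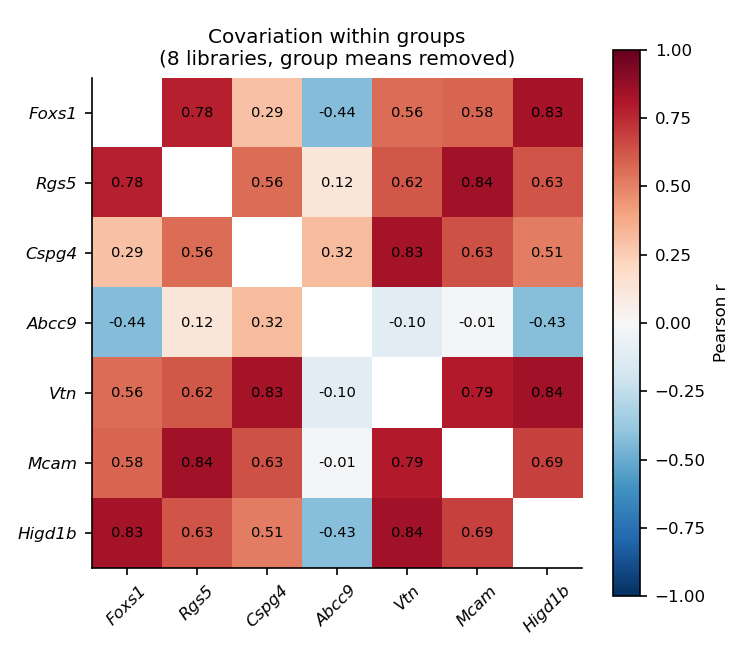
Pearson's r between each pair of the 7 genes over 8 libraries after the mean of each genotype group was removed (colour and number). The row of *Abcc9* holds the negative values, down to −0.44 with *Foxs1*, and the other pairs lie between 0.29 and 0.84.

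A list of 24 further genes of pericytes and mural cells was followed in the same fit. Of these, 23 passed the filter on low counts (*Foxf2* did not), 20 had lower and 3 higher values in the TK-tagged libraries, and the median log2 fold change was −0.37. The groups did not overlap in 7 of the 23, all of them lower, against 2.53% of all genes in this direction. The quasi-likelihood test (0.00738% of all genes called) called none of the 23, with a lowest FDR of 0.442. Its unadjusted p was under 0.05 in 16, each lower in the TK-tagged libraries. In this direction 5.64% of all genes had such a p. The likelihood ratio test (0.391% of all genes called) and DESeq2 (0.236%) called *Steap4*, *Kcnj8* and *Colec11*. The fit without a filter on low counts (0.102%) called *Steap4* and *Colec11*. This list was also chosen with earlier results of these data known, so its counts are a description only.

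The 5 lowest genes of this list were *Cd248*, *Steap4*, *Kcnj8*, *Colec11* and *Pdgfrb*. *Cd248*, a surface glycoprotein (endosialin) of pericytes and fibroblasts, had 27.2 ± 7.53 normalized CPM in the control-tagged and 14.7 ± 5.98 in the TK-tagged libraries (SD, n = 4 per group; log2 fold change −0.88, SE 0.26, FDR = 0.453). *Steap4*, a metalloreductase, had 63.5 ± 12.7 and 36.6 ± 9.28 (log2 fold change −0.79, SE 0.19, FDR = 0.442). Both overlapped between the groups in TK-tagged replicate 4, which with 23.2 and 48.3 normalized CPM was above the lowest control-tagged library. *Colec11*, a secreted collectin, had 31.6 ± 4.32 and 20.9 ± 2.54 without overlap (log2 fold change −0.60, SE 0.12, FDR = 0.442).

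*Pdgfrb*, the receptor by which pericytes are recruited to endothelium, had 139 ± 19.1 and 95.7 ± 17.7 normalized CPM, again without overlap (log2 fold change −0.54, SE 0.14, FDR = 0.442 by the quasi-likelihood test). The FDR of *Steap4* was 0.0399, that of *Kcnj8* 0.0587 and that of *Colec11* 0.0186 by the likelihood ratio test, in ranges over the 15 alternatives that all reached up to 0.940. The other end of the list held *Tbx18*, a transcription factor of mural cells and epicardium (log2 fold change 0.19, SE 0.21, FDR = 0.809), *Ednra*, an endothelin receptor (0.10, SE 0.12, FDR = 0.835), *Art3* (0.09, SE 0.13, FDR = 0.864), *Ebf1* (−0.06, SE 0.16, FDR = 0.937) and *Gucy1a1*, a subunit of soluble guanylate cyclase (−0.15, SE 0.24, FDR = 0.880 by the quasi-likelihood test).

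**Figure D4:**
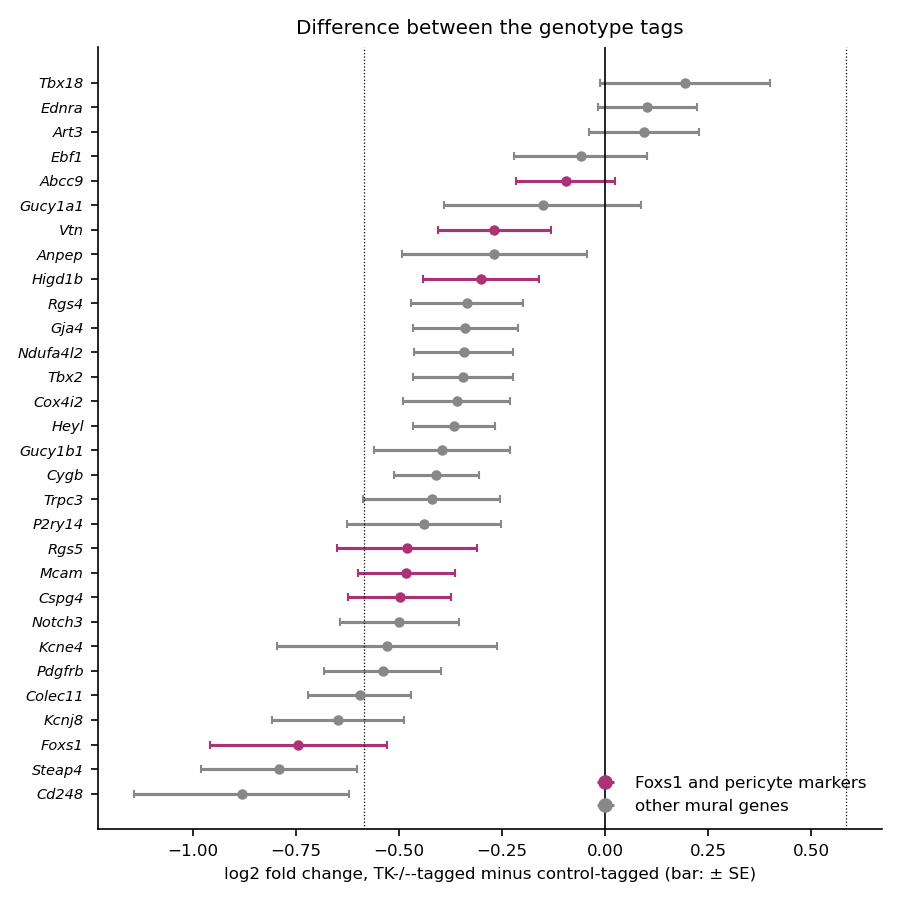
Log2 fold change of the TK-tagged against the control-tagged libraries (horizontal axis, bar ± SE, n = 4 per group) for the 7 genes and the 23 other mural genes tested, with dotted lines at a 1.5-fold change. Of these 30 genes, 27 lie below 0, and *Foxs1* is among the 3 genes with the lowest values.

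The genes whose profile over the 8 libraries was nearest to that of *Foxs1*, by the root mean square difference of log2 normalized CPM after each gene was centred on its mean, were *Hs3st3a1* (0.128), *Cd44* (0.130), *Hhipl1* (0.157), *Ccdc88c* (0.161) and *Ajuba* (0.164). The median difference over all 13541 other genes was 0.486. *Hs3st3a1* encodes a sulfotransferase of heparan sulfate, *Cd44* the hyaluronan receptor and *Ajuba* an adaptor protein of cell junctions. *Cd44* had a normalized CPM of 15.4, 21.7, 13.0 and 18.8 in the control-tagged and 14, 10.1, 10.02 and 12.7 in the TK-tagged replicates 1 to 4, with the same order of the control-tagged libraries as *Foxs1*. *Hs3st3a1* was at a mean of 0.882 normalized CPM, where counting error is large.

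Among the members, *Rgs5* had rank 14 of the 13541 genes in nearness to *Foxs1* (0.207), *Mcam* rank 82, *Higd1b* rank 93, *Cspg4* rank 276, *Vtn* rank 418 and *Abcc9* rank 5975 (0.472). This measure includes the difference between the genotypes for which *Foxs1* was chosen, so the ranks are a description of these libraries.

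The signals that recruit and hold pericytes were followed as a list of 11 genes, all of them tested, with 9 lower and 2 higher in the TK-tagged libraries and a median log2 fold change of −0.21. None was called by the quasi-likelihood test (0.00738% of all genes called), and the unadjusted p was under 0.05 in 4, against 8.96% of all genes. *Angpt1*, a ligand of Tie2, had 12.1 ± 2.31 normalized CPM in the control-tagged and 21.8 ± 7.80 in the TK-tagged libraries (SD, n = 4 per group; log2 fold change 0.85, SE 0.23, FDR = 0.442), with TK-tagged replicate 1 inside the control-tagged range. Its log2 fold change was 0.60 (SE 0.19) without TK-tagged replicate 2 and 1.03 (SE 0.20) without TK-tagged replicate 1. DESeq2 (0.236% of all genes called) and the likelihood ratio test (0.391%) called *Angpt1*, the latter with FDR = 0.0884. Over all alternatives the FDR reached 0.940. *Hbegf*, a growth factor of the EGF family, had 35.0 ± 2.22 and 24.8 ± 4.33 without overlap (log2 fold change −0.49, SE 0.13, FDR = 0.442). *Nid1*, nidogen of the basement membrane, was at −0.36 (SE 0.15, FDR = 0.522) and *Cdh2*, N-cadherin, at 0.08 (SE 0.09, FDR = 0.809 by the quasi-likelihood test).

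The lists of partners and relatives of the members had medians closer to 0, with single genes as low as the members. Of 12 genes of channel subunits, receptors and ligands of the members, 8 were lower and 4 higher with a median log2 fold change of −0.04. None was called by the quasi-likelihood test (0.00738% of all genes called), the likelihood ratio test (0.391%) or DESeq2 (0.236%). The unadjusted p was under 0.05 in 3, against 8.96% of all genes. The collagen VI chains, ligands of NG2, had the lowest values, *Col6a2* at −0.55 (SE 0.18, FDR = 0.468) and *Col6a1* at −0.50 (SE 0.18, FDR = 0.492 by the quasi-likelihood test). *Fgf2*, a growth factor, was at 0.21 (SE 0.21, FDR = 0.791 by the quasi-likelihood test). Of 15 genes related to the members, 13 were tested, 7 lower and 6 higher, with a median of −0.09. None of them was called by these 3 tests, and 1, *Foxf1*, had an unadjusted p under 0.05, against 8.96% of all genes.

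The other forkhead genes with the lowest values were *Foxf1*, whose normalized CPM was 1.47 ± 0.0514 and 0.852 ± 0.317 (n = 4 per group, SD; log2 fold change −0.77, SE 0.30, FDR = 0.508), and *Foxc2* (−0.47, SE 0.28, FDR = 0.642). *Foxf1* had 18 to 21 reads per control-tagged and 6 to 16 per TK-tagged library. Its coefficients of variation were 3.50% and 37.2%, where counting error gives 22.4% and 30.9%. The spread of its control-tagged libraries was thus narrower than counting error. *Higd1a*, the paralog of *Higd1b*, had the opposite sign (0.19, SE 0.09, FDR = 0.579 by the quasi-likelihood test), as had *Alcam* (0.27, SE 0.28, FDR = 0.804), an adhesion molecule related to *Mcam*.

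Markers of the other cells of the LV were read beside these values. Over all genes, 8.96% had an unadjusted p under 0.05. Smooth muscle cells showed no shared direction: of 10 markers 6 were lower and 4 higher, with a median log2 fold change of −0.04 and 0 with an unadjusted p under 0.05, and their summed normalized CPM was 832 to 1421 in the control-tagged and 776 to 1065 in the TK-tagged libraries. *Acta2*, smooth muscle actin, and *Actg2* had the lowest values (−0.43, SE 0.36, FDR = 0.751, and −0.43, SE 0.34, FDR = 0.732), *Smtn* and *Synpo2* the highest (0.12, SE 0.12, FDR = 0.798, and 0.06, SE 0.11, FDR = 0.906 by the quasi-likelihood test). The value of *Acta2* rested on control-tagged replicate 3, at 581 normalized CPM against 210.5 to 243 in the other control-tagged libraries, and was 0.04 (SE 0.28) without it. Of 12 endothelial markers 11 were lower, with a median of −0.28 and a sum of 2986 to 4074 against 2349 to 2988. The unadjusted p was under 0.05 in 7 of them, all lower, where 5.64% of all genes had such a p in this direction. The endothelial markers ran from *Aqp1*, a water channel (−0.70, SE 0.24, FDR = 0.468), and *Tie1* (−0.40, SE 0.13, FDR = 0.464) to *Emcn* (−0.09, SE 0.10, FDR = 0.821) and *Kdr*, the gene of VEGFR-2 (0.01, SE 0.17, FDR = 0.989 by the quasi-likelihood test).

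All 11 fibroblast markers were lower, with a median of −0.22 and an unadjusted p under 0.05 in 1, against 8.96% of all genes. Their sum was 3074 to 3991 in the control-tagged and 1859 to 3627 in the TK-tagged libraries, and it was lowest in TK-tagged replicate 3. In the TK-tagged group the sums of the endothelial and smooth muscle markers were lowest in replicate 2, where 5 members were lowest, and those of the fibroblast, leukocyte and other mural genes in replicate 3. *Pi16* (−0.52, SE 0.22, FDR = 0.528) and *Col3a1* (−0.51, SE 0.34, FDR = 0.692) were lowest, *Dcn* (−0.09, SE 0.19, FDR = 0.912) and *Dpt* (−0.09, SE 0.13, FDR = 0.852 by the quasi-likelihood test) highest. Leukocyte markers had a median of −0.16 over 7 genes, of which 5 were lower. An unadjusted p under 0.05 was found in 1, *Csf1r* (−0.49, SE 0.16, FDR = 0.464), against the same share of all genes. The sum of the leukocyte markers was 110 to 146 and 78.2 to 115, with *Adgre1* at −0.37 (SE 0.20, FDR = 0.612), *S100a8* at 0.33 (SE 0.40, FDR = 0.841) and *Cd3e* at 0.43 (SE 0.63, FDR = 0.866 by the quasi-likelihood test).

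The tested markers of Schwann cells and cardiomyocytes leaned the other way. Their counts of an unadjusted p under 0.05 stand beside 8.96% of all genes. All 4 Schwann cell markers tested of 5 were higher, among them *Sox10* (0.04, SE 0.33, FDR = 0.982), *Mbp* (0.24, SE 0.21, FDR = 0.756) and *Cdh19* (0.57, SE 0.21, FDR = 0.495 by the quasi-likelihood test), with a median of 0.29, 1 unadjusted p under 0.05 and a sum of 10.7 to 14.8 against 12.5 to 18.1. Of 6 cardiomyocyte markers 5 were higher, with a median of 0.18, 1 unadjusted p under 0.05 and a sum of 55424 to 87172 against 71815 to 89356. They ran from *Actc1* (−0.09, SE 0.20, FDR = 0.921) and *Myh6* (0.07, SE 0.21, FDR = 0.941) to *Tnnt2* (0.24, SE 0.18, FDR = 0.727) and *Tnni3* (0.36, SE 0.16, FDR = 0.551). Their sum was lowest in control-tagged replicate 2, where 5 members were highest. No adipocyte marker passed the filter, and 3 of 5 had 0 counts in every library. The quasi-likelihood test (0.00738% of all genes called), the likelihood ratio test (0.391%) and DESeq2 (0.236%) called none of the cell type markers tested, which do not include any adipocyte marker. With shares this small, the absence of calls in lists of this size says little about the markers. The part of the mixture of cells in the values of the 7 genes was not tested.

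**Figure D5:**
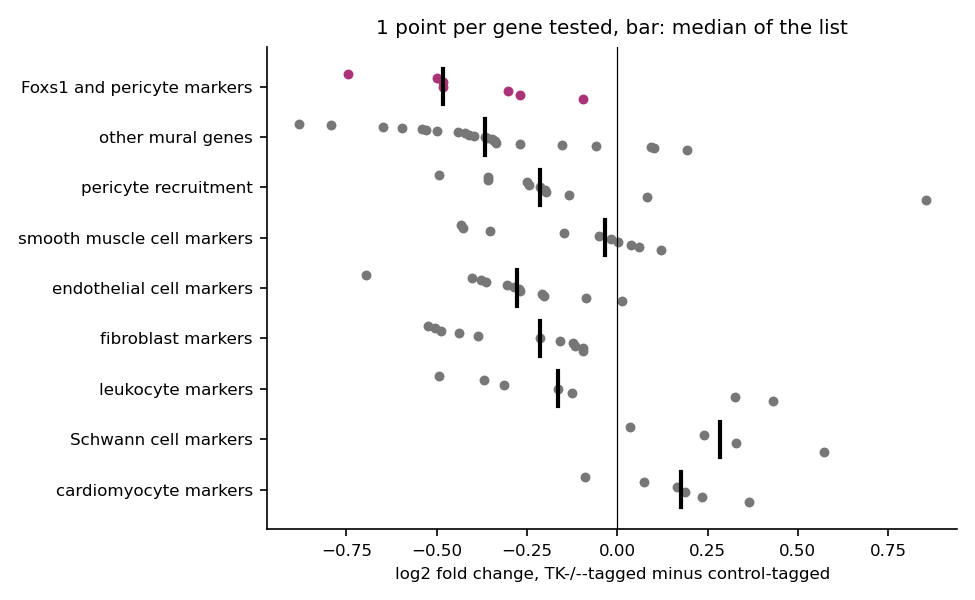
Log2 fold change of the TK-tagged against the control-tagged libraries (horizontal axis) for the 7 genes and 8 lists, 1 point per gene tested, with a bar at the median of each list. The medians run from −0.48 for the 7 genes, −0.37 for other mural genes and −0.28 for endothelial markers to −0.04 for smooth muscle, 0.18 for cardiomyocyte and 0.29 for Schwann cell markers.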

How the data were processed

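RNA libraries of the LV, 4 per genotype, were sequenced. The authors used Trim Galore 0.4.4 to remove low-quality ends. STAR 2.5.4b served for alignment to GRCm38, and the authors counted reads per gene of GENCODE M16 with featureCounts. They deposited whole-number counts without normalization. How strand and reads with several alignments were counted is not given in the sources used here, and the labels and the methods differ on ribosomal RNA depletion or poly-A selection.

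Genes that reached a CPM of 1 in 2 or more libraries were scaled by TMM factors. Genotypes were compared by edgeR 4.0.16 (quasi-likelihood, R 4.3.3), without covariates, with Benjamini-Hochberg adjustment over all 13542 genes. The SE is the absolute log2 fold change divided by the square root of F. For normalized CPM the library totals were multiplied by the TMM factors, and the log2 scale used a prior count of 2. Pairs of genes were compared by all 576 permutations within groups in Python 3.11.15. Coordinates and exon lengths, the latter as the union of all annotated exons of a gene, are from GENCODE M21 (GRCm38). The test was checked on simulated counts.

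The members, lists and tests were chosen with earlier results of these data known. Named genes are the members, the 2 highest and 2 lowest genes of each list (5 and 5 for other mural genes), any list gene called, and the 5 genes nearest to *Foxs1*, except that 2 list genes are not reported here by name. *Kcnj11* and the genes called by other tests were named after their values were seen. *Gucy1a1* and *Gucy1b1* are listed under older symbols. As alternatives served DESeq2 1.42.0, the likelihood ratio test, RLE factors, library totals, no filter, filterByExpr, each library left out and a replicate block. The labels do not tie each library to a mouse, so p-values measure the spread between these libraries. Within a group, every pair of libraries differed beyond sampling noise (chi-square over its degrees of freedom 6.77 to 49.9). This does not show that the libraries come from different mice. Each library was counted as 1 replicate. Totals were 11449137 to 16239670 counts per library, and counting error is the inverse square root of the mean count.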

Additional observations from a re-analysis of the deposited data

Results flagged for a closer look

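In 230 groups of 4 libraries (115 genes of the members and lists in 2 groups each), 12 held a library whose gap to the next one was large for the range of the group, where chance gives about 1 group in 20. None of the 12 concerned a member. Among the mural genes, TK-tagged replicate 2 was low for *Kcnj8* (36.7 normalized CPM, the others 48.5 to 50.6) and *Cox4i2* (8.33, the others 10.6 to 10.97). It also had the lowest value in 5 of the 7 members.

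Control-tagged replicate 2 was high for *Tgfbr2* (92.9 normalized CPM) and low for *Cdh2* (183), *Cnn1* (8.55) and the cardiomyocyte gene *Myl2* (7674, the others 11505 to 12149). Control-tagged replicate 3 was high for *Acta2* (581 normalized CPM, the others 210.5 to 243) and *Wnt5a* (10.01), and control-tagged replicate 1 was low for *Pi16* (151). TK-tagged replicate 3 was high for *Rgs2* (40.3 normalized CPM) and *Smtn* (280.5), and TK-tagged replicate 1 was high for *Cd3e* (1.62).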

How the results depend on the processing

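The log2 fold changes of the 7 genes were below 0 in all 105 combinations with 15 alternatives and moved by less than the SD between replicates. That of *Foxs1* lay between −0.89 and −0.58, their median between −0.54 and −0.33, and the median of the other mural genes between −0.44 and −0.30, all of these extremes being reached by leaving out 1 library. Leaving out 1 of 4 libraries can hardly move a group mean by the SD between replicates, or turn the sign where the groups are separate. These small moves therefore do not test how firm the differences are. The quasi-likelihood test called 1 gene in all, *Flt1* itself (log2 fold change 1.19, FDR = 0.00808). The likelihood ratio test called 53, DESeq2 32 and the fit without a filter 23. Leaving out 1 library gave 1 to 3 calls. Of the other mural genes 3 were called by the likelihood ratio test, 3 by DESeq2 and 2 without a filter, and 0 when a library was left out. Of the recruitment genes 1 was called by the likelihood ratio test and 1 by DESeq2, and 0 when a library was left out. The cause of these shifts was not tested. Pairs of members with an adjusted p under 0.05 numbered 10 with library totals and 0 with TMM factors. They also numbered 0 when 1 library was left out. Only 144 permutations remain then, so such an adjusted p is hard to reach over 21 pairs and its absence says little. *Foxs1* had as few as 39 reads in a library, *Foxf1* 6 and *Cd3e* 3.

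Among the other named genes, leaving out 1 library turned the sign of *Acta2* (0.04 without control-tagged replicate 3), *Actc1* (0.05 without control-tagged replicate 3), *Alcam* (−0.0031 without TK-tagged replicate 1), *S100a8* (−0.04 without TK-tagged replicate 2), *Ebf1* (0.03 and 0.04 without control-tagged replicates 2 and 4), *Dcn* (0.03 and 0.04 without control-tagged replicate 2 and TK-tagged replicate 3) and *Myh6* (−0.04 and −0.03 without the same libraries). The sign of *Sox10* turned without control-tagged replicates 3 and 4 (−0.03 and −0.12) and TK-tagged replicate 3 (−0.28), and that of *Kdr* without control-tagged replicates 1, 3 and 4 and TK-tagged replicates 1 and 2 (−0.11 to −0.01).

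The groups share replicate numbers. The deviations of samples with the same number had correlations of 0.0945, 0.165, 0.346 and −0.0900 over the 500 most variable genes. Only the samples numbered 3 were each other's best match in the other group. Control-tagged replicate 1 and TK-tagged replicate 2 also matched their own number best, but not the reverse. The numbers were not taken as pairs. With the replicate number as a block the log2 fold change of *Foxs1* was −0.71 and the number of calls 1, the same as without it.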
